A study of Mus musculus with 10 samples.

Results

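The membrane-spanning 4A (Ms4a) genes examined here are 10 members of a family of small membrane proteins, namely Ms4a1, Ms4a4a, Ms4a4b, Ms4a4c, Ms4a4d, Ms4a6b, Ms4a6c, Ms4a6d, Ms4a7 and Ms4a8a. They were chosen from the family with earlier results of these data known, and 11 other Ms4a genes with a row are described further below. Each of the 10 matched by gene name 1 row of the 36009 genes in the deposited count table. All 10 had enough counts to be tested among 16041 genes. PolyA RNA was sequenced from subcutaneous tumors of CT26, a mouse colorectal carcinoma line, grown in female wild-type BALB/c mice whose age the labels do not give. All 10 tumors come from the same transplanted line, and the piece sequenced was the resected portion, untreated when it was taken. A hydrogel that releases poly(I:C), a synthetic double-stranded RNA, was then placed on the residual tumor. From the treated mice the study selected 6 responders, whose tumors regressed completely, and 4 non-responders, in which growth was not delayed, 1 tumor per mouse. The comparison asks how the tumor microenvironment (TME) already differed by outcome at surgery. Total estimated counts per tumor ran from 29065126 to 38042544 in responders and from 23374649 to 32986456 in non-responders.

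Ms4a proteins cross the membrane several times and sit in the surface and endosomal membranes of leukocytes, where many act as partners of immune receptors. The best known member is Ms4a1, which encodes CD20 of B cells, and Ms4a2 encodes the beta chain of the high-affinity IgE receptor of mast cells. Ms4a4b and Ms4a6b are known from T cells and NK cells, Ms4a4c and Ms4a6c from monocytes and other myeloid cells, and Ms4a4a, Ms4a6d, Ms4a7 and Ms4a8a from macrophages.

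The 10 genes lie in a cluster on chromosome 19 of GRCm38 (mm10), from the start of Ms4a8a at 11067471 to the end of Ms4a6d at 11604849. The cluster arose by duplication, and neighbors still share sequence. This is visible in the 250 bases before the RefSeq start of paired neighbors, shown because Ms4a6b and Ms4a6c had the most alike expression of all 45 pairs of members, while Ms4a4b and Ms4a4c were less alike. The sequences are those of RefSeq on GRCm38.p6, plus strand, at chr19:11518309-11518558 (Ms4a6b), chr19:11469118-11469367 (Ms4a6c), chr19:11443308-11443557 (Ms4a4b) and chr19:11407411-11407660 (Ms4a4c), and capitals mark the longest run of bases that is identical within each pair:
Ms4a6b: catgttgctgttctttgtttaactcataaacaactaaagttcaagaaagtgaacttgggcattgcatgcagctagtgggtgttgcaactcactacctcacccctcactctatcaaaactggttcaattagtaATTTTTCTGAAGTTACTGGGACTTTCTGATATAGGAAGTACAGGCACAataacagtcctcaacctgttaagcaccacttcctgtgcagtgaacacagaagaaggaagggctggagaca
Ms4a6c: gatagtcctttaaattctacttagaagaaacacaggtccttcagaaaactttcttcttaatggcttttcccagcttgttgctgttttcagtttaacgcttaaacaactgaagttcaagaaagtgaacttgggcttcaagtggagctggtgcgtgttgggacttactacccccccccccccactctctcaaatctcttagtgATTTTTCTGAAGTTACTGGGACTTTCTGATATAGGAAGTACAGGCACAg
Ms4a4b: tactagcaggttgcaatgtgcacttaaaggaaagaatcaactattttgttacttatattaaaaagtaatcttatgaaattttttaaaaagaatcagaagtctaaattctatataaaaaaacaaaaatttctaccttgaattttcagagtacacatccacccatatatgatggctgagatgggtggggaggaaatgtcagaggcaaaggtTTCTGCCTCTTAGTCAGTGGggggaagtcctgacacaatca
Ms4a4c: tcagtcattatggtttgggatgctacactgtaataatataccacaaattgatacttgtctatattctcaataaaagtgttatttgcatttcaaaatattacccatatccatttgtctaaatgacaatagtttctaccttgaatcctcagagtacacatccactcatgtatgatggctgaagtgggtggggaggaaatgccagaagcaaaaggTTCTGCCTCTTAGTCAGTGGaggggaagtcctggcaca

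RefSeq and GENCODE place some starts differently, and the windows of Ms4a6b and Ms4a4c lie inside the outer bounds that GENCODE gives these genes. The run shared by Ms4a6b and Ms4a6c was 48 bases long and began 118 bases before the start of Ms4a6b and 49 bases before that of Ms4a6c. The run shared by Ms4a4b and Ms4a4c was 20 bases long and began 41 and 38 bases before their starts. Motifs were searched on both strands in windows of 250 bases before to 50 after the start, of which RefSeq gave 9 for 8 of the members (2 for Ms4a7), and Ms4a1 and Ms4a6d were not matched. The letters AGGAAGT, a core of ETS-type sites, stood inside the shared run of Ms4a6b and Ms4a6c, 86 and 17 bases before the start, and again on the other strand of Ms4a6b 43 bases before it, and 9.35% of all 32851 windows hold them. The letters GAAANNGAA, a short form of the interferon response element, were found in Ms4a6b 206 bases and in Ms4a6c 133 bases before the start, and in 2 windows of Ms4a7, against 8.56% of all windows. The full interferon-stimulated response element, which contains the short form, was found in 0 of the 9 windows and in 3.44% of all. GAGGAAGT, which contains AGGAAGT (3.20% of all), and TTCNNNGAA (8.30% of all) were also found in 0 of the 9. These are matches of letters and no evidence of binding.

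Expression is given in CPM, a gene's count scaled to the size of its library. With edgeR's quasi-likelihood test (threshold 0.05 after adjustment over all genes), 4 of the 10 genes were called higher in responders and 0 lower, where 4.71% of all genes tested were called higher, 3.35% lower and 8.06% in either direction. At an unadjusted p under 0.05, 7 of the 10 were higher, against 15.6% of all genes. The 4 genes called after adjustment were Ms4a7, Ms4a4d, Ms4a6c and Ms4a6b. All 10 had an estimate above 0, with a median log2 fold change of 0.59, where 48.2% of all genes had an estimate above 0 and their median was -0.01. In bulk tissue, fewer cells of a type and less RNA per cell cannot be told apart. For 3 of the 10 genes (Ms4a7, Ms4a4d and Ms4a4c) every responder lay above every non-responder, which held for 5.85% of all genes tested, and for 0 of the 10 every responder lay below, against 4.54% of all. Because the 10 genes were chosen with earlier results of these data known, the shares of all genes stand beside them as description. They are not a test of the family.

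**Figure D1:**
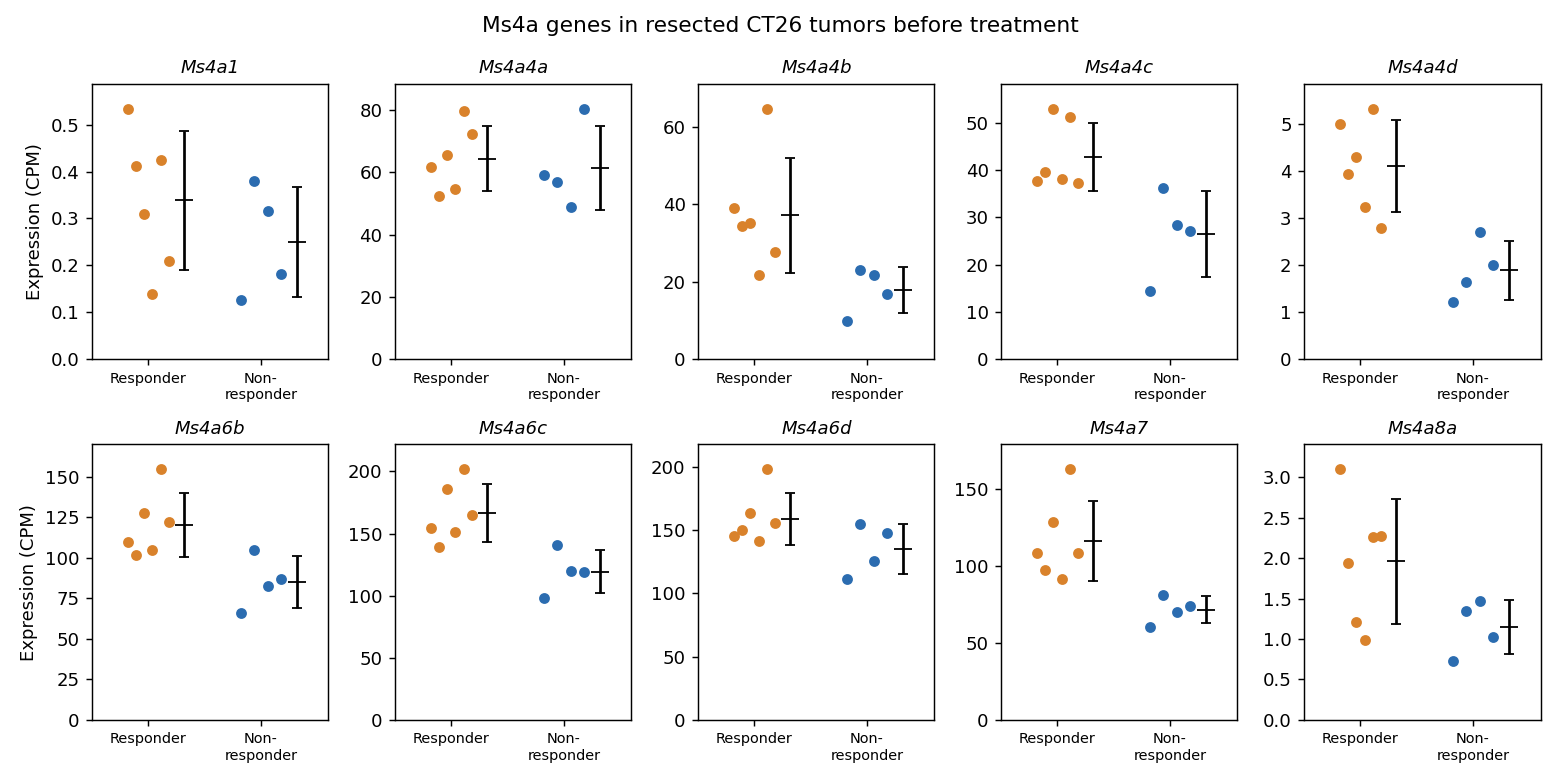
Expression in CPM (linear axis from 0) of each Ms4a gene, 1 point per tumor, in 6 responders (orange) and 4 non-responders (blue), with mean and SD in black. The groups do not overlap for Ms4a4c, Ms4a4d and Ms4a7, and they lie over each other for Ms4a4a, with means of 64.4 and 61.3 CPM.

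Among the macrophage genes, Ms4a7 (ENSMUSG00000024672, chromosome 19, 11321039 to 11336146) differed most clearly. In responders it ran from 91.6 to 162.7 CPM with a median of 108.4 CPM. In non-responders 1 to 4 it was at 60.4, 81.4, 70.0 and 73.85 CPM. Even the lowest responder was above the highest non-responder, and responder 5 was the highest. The means were 116.1 ± 26.0 CPM (SD, n = 6) and 71.4 ± 8.73 CPM (SD, n = 4). Its log2 fold change was 0.70 (SE 0.15), with an edgeR adjusted p of 0.031.

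Ms4a6c (ENSMUSG00000079419, chromosome 19, 11469366 to 11482192), a gene of monocytes and macrophages, ran from 139.5 to 201.6 CPM in responders with a median of 159.6 CPM. In non-responders 1 to 4 it was at 98.15, 140.7, 119.7 and 118.6 CPM, so 5 of 6 responders were above all non-responders and the lowest responder was just below non-responder 2. It was called with an edgeR adjusted p of 0.0372 and an estimate of 0.48 (SE 0.12, log2), between means of 166.2 ± 23.3 CPM (SD, n = 6) and 119.3 ± 17.4 CPM (SD, n = 4).

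Ms4a6d, which encodes a macrophage protein of the same subgroup, had the highest level per length of the 10 genes and the second smallest estimate. Responders ran from 141.4 to 197.9 CPM with a median of 152.7 CPM, and non-responders 1 to 4 were at 111.6, 154.8, 125.5 and 147.5 CPM. Only 3 of 6 responders were above all non-responders. The estimate of 0.24 (SE 0.11, log2) did not pass, with an edgeR adjusted p of 0.180.

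Ms4a4a, whose protein is found on macrophages and associates with the fungal receptor dectin-1, did not pass either. Responders ran from 52.5 to 79.7 CPM with a median of 63.6 CPM, and non-responders 1 to 4 were at 59.2, 56.8, 48.9 and 80.4 CPM. The highest of the 10 tumors was non-responder 4, and 0 of 6 responders were above all non-responders. The estimate was 0.07 (SE 0.15, edgeR adjusted p = 0.791), and its 95% interval of -0.25 to 0.39 on the log2 scale still allows a modest difference in either direction.

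Ms4a8a, a low gene linked to alternatively activated macrophages, ran from 0.990 to 3.10 CPM in responders with a median of 2.10 CPM. In non-responders 1 to 4 it was at 0.727, 1.345, 1.47 and 1.03 CPM. The groups overlapped at responders 3 and 4, which were at 1.205 and 0.990 CPM. Its log2 fold change of 0.78 (SE 0.325) did not pass (edgeR adjusted p = 0.137), and it rested on 18.01 to 93.1 counts per tumor.

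Of the genes known from T cells, Ms4a4b, an adaptor associated with the costimulatory receptor GITR, had the larger estimate and did not pass. It ran from 21.65 to 64.7 CPM in responders with a median of 34.8 CPM, and it was at 9.77, 22.97, 21.8 and 16.8 CPM in non-responders 1 to 4. Responder 4 was the only responder below any non-responder, and responder 5 was far above the others at 64.7 CPM. The means were 37.1 ± 14.8 CPM (SD, n = 6) and 17.8 ± 6.01 CPM (SD, n = 4), and the estimate was 1.06 (SE 0.305, log2), at an edgeR adjusted p of 0.0548.

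Ms4a6b (ENSMUSG00000024677, chromosome 19, 11516512 to 11531256) passed by a narrow margin. Which cells of these tumors express Ms4a6b was not tested. Responders ran from 102.1 to 154.7 CPM with a median of 116.1 CPM, and non-responders 1 to 4 were at 65.8, 104.8, 82.8 and 86.7 CPM. Non-responder 2 was level with the lower responders, so 4 of 6 responders were above all non-responders. The estimate was 0.50 (SE 0.14, log2) at an edgeR adjusted p of 0.04995, and with unrounded counts the adjusted p was 0.0501.

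Ms4a4c, a gene of monocytes and other myeloid cells, ran from 37.35 to 53.0 CPM in responders with a median of 38.8 CPM. In non-responders 1 to 4 it was at 14.4, 36.3, 28.4 and 27.1 CPM. The groups did not overlap, although non-responder 2 came close to the lowest responder. Its log2 fold change of 0.69 (SE 0.21) did not pass (edgeR adjusted p = 0.0638).

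Ms4a4d (ENSMUSG00000024678, chromosome 19, 11536801 to 11558467) had the largest estimate of the 10 genes. Responders ran from 2.79 to 5.32 CPM with a median of 4.12 CPM, and non-responders 1 to 4 were at 1.21, 1.64, 2.69 and 1.99 CPM. Every responder was above every non-responder. The means were 4.10 ± 0.981 CPM (SD, n = 6) and 1.88 ± 0.624 CPM (SD, n = 4). It was called with an estimate of 1.12 (SE 0.24, log2) at an edgeR adjusted p of 0.031.

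CD20 itself was barely measured. Ms4a1 had 3.10 to 16.05 counts per tumor, which is 0.139 to 0.534 CPM in responders with a median of 0.361 CPM, and 0.125, 0.379, 0.316 and 0.181 CPM in non-responders 1 to 4. The groups overlapped through most of their range. The estimate was 0.45 (SE 0.425, log2; edgeR adjusted p = 0.513), and the 95% interval of -0.48 to 1.39 is too wide to tell a difference at this depth.

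Levels of different genes were compared as CPM per kilobase of the median annotated transcript, over all 10 tumors. Ms4a6d was highest, at 233.6 ± 35.8 CPM per kilobase (SD, n = 10), followed by Ms4a6c at 118.9 ± 25.4, a gene that was below Ms4a6d in 10 of 10 tumors. Ms4a4a at 75.6 ± 13.3 and Ms4a7 at 73.6 ± 22.9 CPM per kilobase had no common order over all tumors. Ms4a7 was the lower of them in 1 of 6 responders, with means of 87.1 for Ms4a7 and 77.1 for Ms4a4a, and in 4 of 4 non-responders, with means of 53.5 and 73.4. Below them came Ms4a6b (62.9 ± 14.9), Ms4a4c (52.9 ± 16.4) and Ms4a4b (37.4 ± 19.4), each below the gene before it in 9 of 10 tumors and with overlapping spreads. Ms4a4d (2.12 ± 0.927), Ms4a8a (1.45 ± 0.657) and Ms4a1 (0.101 ± 0.0454) formed a much lower tier. With the longest transcript as the length all 10 genes kept their place, and Ms4a7 then lay further below Ms4a4a, at 27.2 against 75.6 CPM per kilobase. The order of Ms4a7 and Ms4a4a within responders given above therefore depends on the length used.

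Summed over the 10 genes, expression was 607.6 to 920.5 CPM in responders and 421.3 to 601.2 CPM in non-responders, so the lowest responder was slightly above the highest non-responder. The makeup of this sum differed between the groups. Ms4a6d made up 22.4% ± 1.08 of the sum (SD, n = 6 responders) against 26.0% ± 0.743 (SD, n = 4 non-responders), while Ms4a7 made up 16.2% ± 0.942 and 13.8% ± 0.448. The share of Ms4a6b was 16.9% ± 0.459 and 16.3% ± 0.864, and that of Ms4a4b 5.10% ± 1.29 and 3.38% ± 0.891. These shares are a description and were not tested.

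The same tumors stood at the ends for most of the genes. Responder 5 was the highest tumor for 6 genes and among the 3 highest for all 10. Non-responder 1 was the lowest tumor for 9 genes, all but Ms4a4a, and its median deviation from the gene means was -0.75 on the log2 scale. Responder 4 was among the 3 lowest tumors for 5 genes, namely Ms4a1, Ms4a4a, Ms4a4b, Ms4a6d and Ms4a8a. Non-responder 4 was among the 3 lowest for 8 genes and yet the highest for Ms4a4a.

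**Figure D2:**
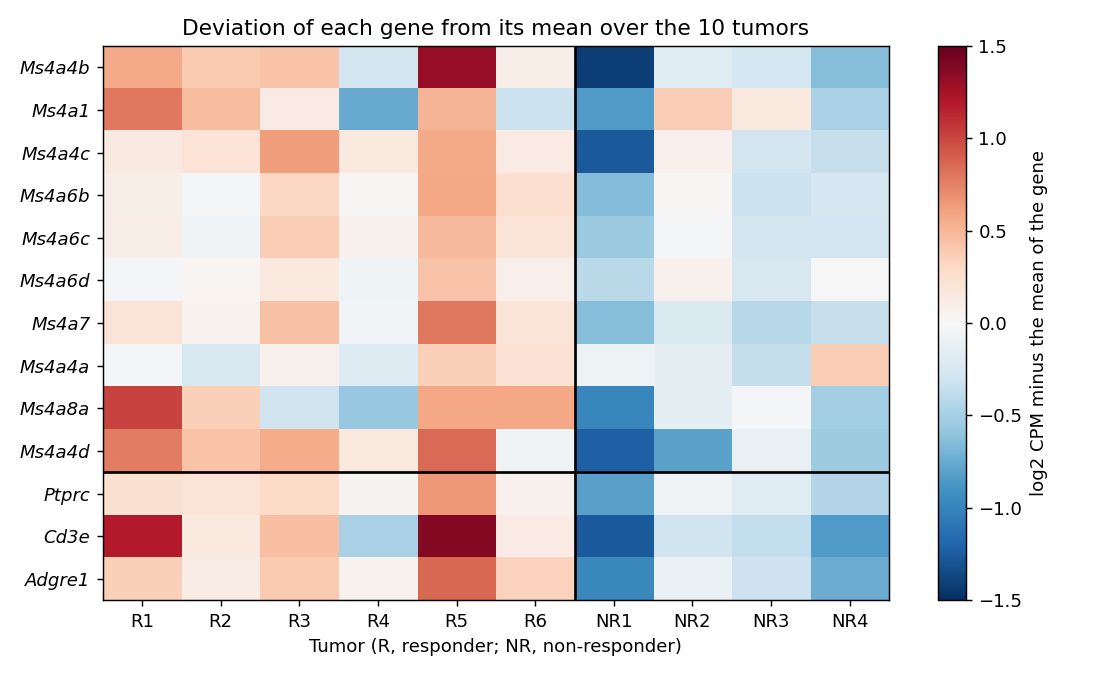
Log2 CPM of each gene minus its mean over the 10 tumors (color, log2 scale), with tumors in columns (R, responder; NR, non-responder) and Ms4a genes above the line. Ptprc, Cd3e and Adgre1, markers of leukocytes, T cells and macrophages, are below the line, and non-responder 1 is low in all rows but Ms4a4a, where it is near the mean.

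Likeness between genes was measured as the root mean square (RMS) difference of their log2 CPM deviations over the 10 tumors. A value of 0 means the same deviations, in shape and in size. Among the 45 pairs of members the closest was Ms4a6b with Ms4a6c, at 0.060, followed by Ms4a6b with Ms4a7 at 0.127. The least alike pair was Ms4a4a with Ms4a4b, at 0.680. Ms4a4b with Ms4a4c stood at 0.342. Ms4a4b and Ms4a6b, both known from T cells, stood further apart, at 0.428. The measure also depends on the size of the deviations, whose own RMS was 0.70 for Ms4a4b, 0.51 for Ms4a4c and 0.33 for Ms4a6b. Whether the shape of their patterns differs was therefore not shown by it. Transcripts of Ms4a6b and Ms4a6c have 281 words of 31 bases in common, those of Ms4a4b and Ms4a4c 227, and the part of reads that match both genes in these patterns was not tested.

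Outside the family, each gene was set against 13725 genes with a mean of at least 1 CPM. The nearest genes to Ms4a4b, whose own RMS deviation was 0.70, were Il18r1, Lck and Grap2, each at an RMS difference of 0.13. Lck is the kinase that starts T cell receptor signaling, Grap2 an adaptor in the same pathway and Il18r1 a subunit of the interleukin-18 receptor. For Ms4a4c, with an RMS deviation of 0.51, they were Fgd2 (0.118), Tlr3 (0.127), the endosomal receptor of double-stranded RNA, and H2-T24 (0.128), a nonclassical MHC class I gene.

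Ms4a6b and Ms4a6c had the same nearest gene, Abcg3, at RMS differences of 0.051 and 0.047, and shared Arhgap30 at 0.076 and 0.071. Sgk3 was also near Ms4a6c, at 0.071. Nlrc4, an inflammasome sensor, was the second for Ms4a6b at 0.071. Ms4a7 was nearest to Rassf2 (0.094), Pirb (0.096), an inhibitory myeloid receptor, and Slc37a2 (0.097), while Ms4a6d was nearest to Rgs10 (0.043), Hfe (0.047) and Dmac2 (0.054). Ms4a4d lay nearest to Stk26 (0.159), Slc11a1 (0.200), a metal transporter of phagocytes, and Mag (0.205). For Ms4a4a they were Slc25a42 (0.112), Tmem19 (0.113) and Lpcat4 (0.120), for Ms4a1 Gm47036 (0.235), Celsr1 and Ltb (both 0.286), and for Ms4a8a Tent5c (0.255), Slain1 (0.262) and Sdcbp2 (0.263). When deviations were taken from the mean of each response group, 13 of these 30 nearest genes stayed among the nearest. All those of Ms4a6b stayed, and all those of Ms4a7 and Ms4a4a dropped out. Grap2 for Ms4a4b, H2-T24 for Ms4a4c, and Slc11a1 and Mag for Ms4a4d were also among those that dropped out.

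Of 11 other Ms4a genes with a row, 4 had enough counts to be tested. Ms4a14, the neighbor of Ms4a7, averaged 10.8 ± 2.22 CPM over responders (SD, n = 6) against 6.90 ± 0.791 CPM (SD, n = 4), and it was called higher with an estimate of 0.64 (SE 0.155, log2) and an edgeR adjusted p of 0.0372. The log2 ratio of Ms4a7 to Ms4a14 was 3.43 ± 0.13 (SD, n = 6 responders) and 3.37 ± 0.14 (SD, n = 4 non-responders), with overlapping ranges. Ms4a2, the mast cell gene, had an estimate of 0.89 (SE 0.33, log2) that did not pass (edgeR adjusted p = 0.104), and Ms4a20 and Ms4a12 had estimates of 0.75 and 0.37 that also did not pass (edgeR adjusted p = 0.189 and 0.294). The related genes Tmem176a and Tmem176b, abundant in myeloid cells, did not pass, at log2 fold changes of 0.03 (SE 0.06) and 0.01 (SE 0.07) and edgeR adjusted p of 0.725 and 0.953. Ms4a3, Ms4a5 and Ms4a15 had at most 4 counts in any tumor. Ms4a10, Ms4a13, Ms4a18 and Ms4a19 had no count, which allows a level of up to 0.0783 to 0.13 CPM depending on the tumor (3 counts, counting error only).

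Among genes reported to work with Ms4a proteins, 1 of the 7 tested was called, and it was higher. This was Fcer1g, the signaling chain shared by Fc receptors, with means of 184.2 ± 34.1 CPM (SD, n = 6 responders) and 112.9 ± 27.2 CPM (SD, n = 4 non-responders), an estimate of 0.71 (SE 0.17, log2) and an edgeR adjusted p of 0.0372. Tnfrsf18, which encodes GITR, was at 7.49 ± 1.35 and 5.70 ± 1.26 CPM and did not pass (edgeR adjusted p = 0.142). Tnfrsf18 had the next smallest p of this list.

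Every macrophage, T cell and NK cell marker tested had an estimate above 0, as the 10 Ms4a genes did. Of 9 macrophage markers, 7 were called higher and 0 lower, with a median log2 fold change of 0.65, and their summed level was 2719 to 4096 CPM in responders and 1678 to 2463 CPM in non-responders. Among them C1qc, a subunit of complement C1q, had an estimate of 0.76 on the log2 scale (edgeR adjusted p = 0.0229). Of 11 T cell markers, 1 was called higher (Cd8b1, edgeR adjusted p = 0.0472), with Cd3e next (edgeR adjusted p = 0.0523), a median log2 fold change of 0.83 and sums of 193.4 to 436.6 CPM against 133.4 to 220.4 CPM. The largest parts of the T cell sums were Cd4, with means of 88.2 and 73.2 CPM, and Thy1, with 78.8 and 57.9 CPM. Neither was called. Of 6 NK cell markers, 2 were called higher (Klre1 and Klrk1, edgeR adjusted p = 0.0439 and 0.0448) with sums of 63.05 to 126.7 CPM against 16.45 to 52.6 CPM.

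Of 6 monocyte markers tested, 1 was called higher (Ly6c2, edgeR adjusted p = 0.0401), Ccr2 came next (edgeR adjusted p = 0.0638), and the sums were 286.2 to 350.8 CPM against 250.3 to 310.5 CPM. The median log2 fold change of the 6 was 0.29, with F13a1 and Vcan at -0.05 and 0.05. None of 8 B cell markers was called by edgeR, although 5 had an unadjusted p under 0.05, with Cr2 and Cd22 the smallest (edgeR adjusted p = 0.0724 and 0.0836), and the sums were 36.8 to 60.2 CPM against 20.9 to 36.75 CPM. These sums were mostly Cd22, with means of 34.2 CPM in responders and 23.5 CPM in non-responders. Cd79a and Blk had estimates below 0, at -0.09 and -0.28 on the log2 scale. Of 8 genes of alternatively activated macrophages edgeR called 0 in either direction, and at an unadjusted p under 0.05 there were 1 with a higher estimate, Clec10a, and 2 with a lower one, Mgl2 and Arg1. Their median log2 fold change was -0.11 and their sums were 499.6 to 668.6 CPM in responders and 550.2 to 835.6 CPM in non-responders. Mgl2 and Arg1, the smallest p of that list, had log2 fold changes of -0.62 and -0.89 (edgeR adjusted p = 0.0834 and 0.151). No marker in these lists was at 0 in all tumors.

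Some genes of other cell types and tissues also differed. Of 7 mast cell markers 2 were called higher (Cma1 and Kit, edgeR adjusted p = 0.0403 and 0.0434), and of 5 skeletal muscle genes 2 (Acta1 and Ckm, edgeR adjusted p = 0.0391 and 0.0464), with muscle sums of 347.6 to 1122 CPM in responders and 307.9 to 401.7 CPM in non-responders. Of 6 dendritic cell markers 1 was called, Xcr1 (log2 fold change 1.46, edgeR adjusted p = 0.0222), with Clec9a next (edgeR adjusted p = 0.0913). The median log2 fold change of this list was only 0.24. Flt3 was at 0.01, and Zbtb46 and Cd209a had estimates below 0, at -0.16 and -0.34. Among 4 adipocyte, 5 plasma cell, 5 neutrophil, 5 fibroblast and 2 skin keratinocyte genes tested, edgeR called 0, with unadjusted p under 0.05 and a higher estimate in 4, 1, 1, 0 and 1 of them and a lower estimate in 0, 1, 0, 0 and 0. The smallest p were those of Cidec and Adipoq, Sdc1 (log2 fold change -0.41) and Derl3, Csf3r and Retnlg, Col3a1 and Dcn, and Trp63 and Krt10. Of the 5 neutrophil genes only 1, Csf3r, had an estimate above 0, and their median log2 fold change was -0.09. Plasma cell genes summed to 92.4 to 112.8 CPM in responders and 114.6 to 164.4 CPM in non-responders, mostly Sdc1. The epithelial markers Krt8, Krt18 and Epcam were at or below 0.389 CPM on average in either group, near absent for tumors labelled a carcinoma, and Cd44 was abundant at 589.3 ± 46.2 and 644.2 ± 137.3 CPM. Beyond the fits that follow, the part of these cell types in the Ms4a differences was not tested.

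To set the Ms4a genes against leukocyte content, the log2 CPM of Ptprc, which encodes the leukocyte antigen CD45, was added to the model. Ptprc ran from 326.2 to 499.3 CPM in responders and from 181.1 to 307.4 CPM in non-responders, and these ranges do not overlap. With this covariate edgeR called 0 of the 10 genes and 0 had an unadjusted p under 0.05. The estimate of Ms4a7 went from 0.70 to 0.19 (SE 0.14, edgeR adjusted p = 0.920), that of Ms4a4b from 1.06 to -0.13 (SE 0.15, edgeR adjusted p = 0.936) and that of Ms4a6b from 0.50 to 0.03 (SE 0.12, edgeR adjusted p = 0.984). Ms4a4d kept the largest estimate, 0.44 (SE 0.30, edgeR adjusted p = 0.915).

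With the mean of the macrophage markers as covariate, which also did not overlap between groups, the estimate of Ms4a7 was 0.01 (SE 0.13) and that of Ms4a6c was -0.04 (SE 0.10), and 0 genes were called or had an unadjusted p under 0.05. T cell markers did overlap between groups, at a mean log2 CPM of 3.23 to 4.82 in responders and 2.31 to 3.50 in non-responders. With them as covariate Ms4a4b was at 0.10 (SE 0.10, edgeR adjusted p = 0.793) and Ms4a7 at 0.30 (SE 0.13, edgeR adjusted p = 0.522), and edgeR called 0 genes, with 2 at an unadjusted p under 0.05. Because Ptprc and the macrophage markers separate the groups as the outcome does, a response effect and a content effect cannot be told apart in those fits. The T cell markers overlapped only between 3.23 and 3.50, so the fit with them can hardly separate these effects either. Over all genes, the fits with any of these covariates also left 0 calls.

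**Figure D3:**
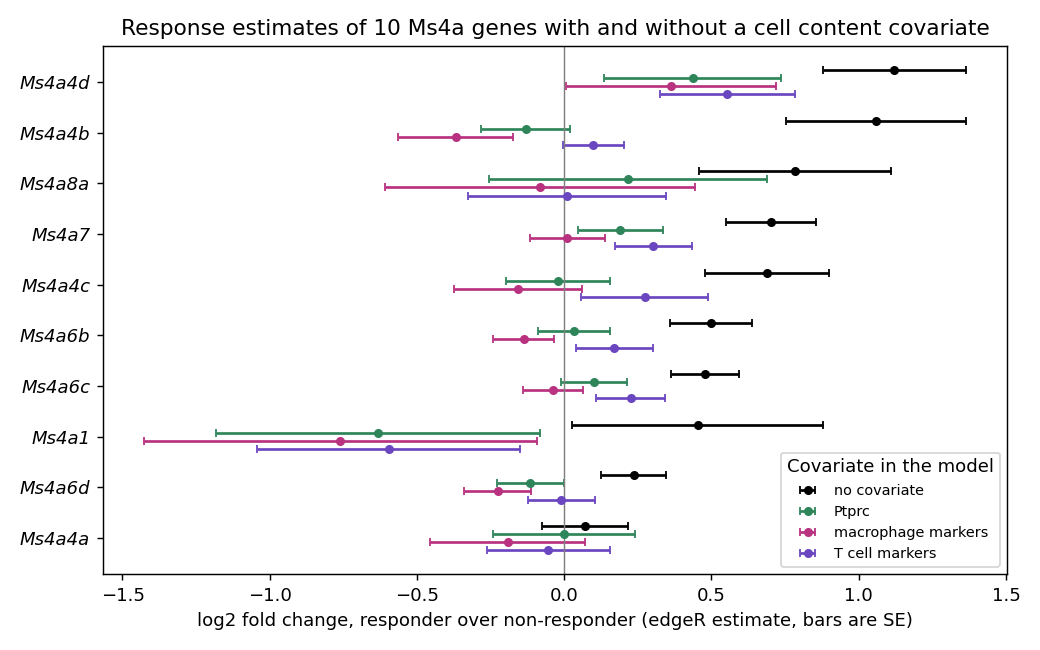
Log2 fold change of each Ms4a gene, responder over non-responder, from edgeR, with bars for the SE, without a covariate (black) and with Ptprc, macrophage markers or T cell markers in the model (colors). Without a covariate all 10 points are above 0, and with the macrophage markers Ms4a7 lies at 0.01 and Ms4a4b at -0.37.

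Ratios within a tumor, which do not depend on library size, showed how the genes stood against each other and against a marker. These 15 ratios were chosen after the values were seen and carry no test. The log2 ratio of Ms4a7 to Ms4a4a ran from 0.58 to 1.03 in responders and from -0.12 to 0.52 in non-responders, with no overlap. Against Adgre1, which encodes the macrophage antigen F4/80, Ms4a7 was at -0.95 ± 0.07 (SD, n = 6 responders) and -0.74 ± 0.27 (SD, n = 4 non-responders), and the ranges overlapped. Ms4a4a against Adgre1 was lower in every responder, at -1.78 ± 0.13 (SD, n = 6), than in any non-responder, at -0.98 ± 0.60 (SD, n = 4), as were Ms4a6c (-0.63 to -0.23 against -0.20 to 0.21) and Ms4a6d (-0.66 to -0.31 against -0.13 to 0.52). Adgre1 itself was called with an estimate of 0.87 (SE 0.19, log2) at an edgeR adjusted p of 0.031, larger than that of these Ms4a genes.

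The ratio of Ms4a4b to Cd3e, a T cell receptor subunit, was 1.16 ± 0.31 (SD, n = 6 responders) and 1.29 ± 0.15 (SD, n = 4 non-responders), with overlapping ranges. Ms4a6b against Cd3e was at 2.93 ± 0.59 and 3.60 ± 0.27. Ms4a6b to Ms4a6c hardly varied, from -0.54 to -0.38 and from -0.58 to -0.42. Ms4a6b to Ms4a6d ran from -0.55 to -0.35 in responders and from -0.77 to -0.56 in non-responders, a gap of little width. The log2 ratio of Ms4a4c to the monocyte gene Ly6c2 was 0.75 ± 0.13 and 0.93 ± 0.12.

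The calls depended on single tumors. Leaving out non-responder 1, non-responder 4 or responder 3 left 0 of the 10 genes called by edgeR, with 6, 7 and 7 at an unadjusted p under 0.05. Without responders 1, 2 or 5 or non-responder 3 the count was 1, and without responder 6 it was 2. Without responder 4 it rose to 5 and without non-responder 2 to 6. Over all genes the count of 1293 moved in the same fits between 0 (without non-responder 4, with 4106 genes at an unadjusted p under 0.05) and 1897 (without non-responder 2). Ms4a7 was called in 6 of these 10 fits, Ms4a4d in 4, Ms4a6c, Ms4a6b and Ms4a4b in 2 each and Ms4a4c in 1. The estimate of Ms4a7 stayed between 0.58 and 0.77, that of Ms4a4d between 0.97 and 1.33 and that of Ms4a4b between 0.83 and 1.20.

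**Figure D4:**
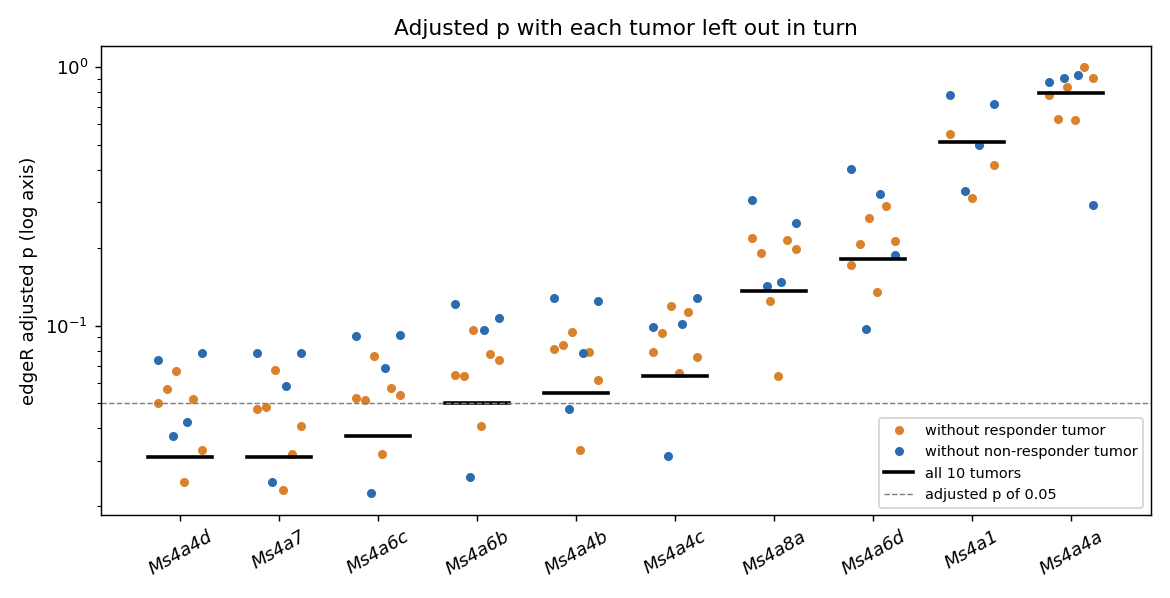
EdgeR adjusted p (log axis) of each Ms4a gene with 1 tumor left out in turn (points, orange for a responder and blue for a non-responder left out) and with all 10 tumors (black bars), beside the threshold of 0.05 (dashed). Points of Ms4a7, Ms4a4d, Ms4a6c, Ms4a6b, Ms4a4b and Ms4a4c lie on both sides of the line, and Ms4a1 has 7 points because the filter on low counts removed it from the other fits.

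Shared sequence limits some of these values. Of the 31-base words in the annotated transcripts of Ms4a4c, 15.6% are also held by another of the 10 genes, mostly Ms4a4b, and of those of Ms4a6c 14.2%, mostly Ms4a6b. For Ms4a6c 58.1% of the words are shared with some other gene, of which BE692007, an overlapping transcript on the other strand, holds 1031 words, and it had no row among the genes used here. Ms4a1 and Ms4a6b also overlap antisense genes. The strand setting is not given in the sources used here, so reads of such partners cannot be told apart. Ms4a4a shared 0.0% of its words with any gene, Ms4a8a 0.683% and Ms4a7 1.42%.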

How the data were processed

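RNA of 10 resected CT26 tumors was sequenced by the authors (polyA, paired end), quantified with Kallisto with mm10 as reference (GRCm38 in the submitters' processing notes) and tximport for gene sums. The table deposited by the authors holds expected counts, that is, estimated counts that need not be whole. The annotation release and strand setting are not given in the sources used here. Groups follow the response label. Tumor numbers follow accession order and pair nothing. Nothing in the labels gives a batch.

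Estimated counts were rounded, filtered with filterByExpr (minimum count 10, minimum total 15), TMM-normalized and tested with edgeR 4.0.16 in R 4.3.3 (quasi-likelihood, two-sided, Benjamini-Hochberg over 16041 genes, threshold 0.05), a procedure tested on simulated data. Intervals are at 95%. Log2 CPM used a prior count of 2. Alternatives were RLE factors, DESeq2 1.42.0, limma-voom 3.58.1, no filter, CPM of at least 1 in at least 4 tumors, unrounded counts, 3 covariates and each tumor left out. GENCODE M21 gave coordinates, lengths and transcripts. All 10 members are named, with the other Ms4a genes, the 2 smallest p of each list tested and the 3 nearest genes. Of the genes this rule names, 1 is not reported here. Members and lists were chosen with earlier results of these data known. Only the tumor cell list, with 1 gene tested (Cd44), is given by levels alone.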

Additional observations from a re-analysis of the deposited data

Results flagged for a closer look

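Each of the 10 genes was examined in each response group for a tumor far from the rest, as the gap to the nearest tumor divided by the range of the group. Of the 20 groups of values 0 stood out, where chance gives about 1.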

How the results depend on the processing

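With RLE factors, DESeq2, limma-voom, no filter, the CPM filter or unrounded counts the number of Ms4a genes called higher was 4, 6, 3, 4, 4 and 3, beside 4 as reported. Over all genes DESeq2 gave 2580 calls, and the cause was not tested. With Ptprc, macrophage markers or T cell markers as covariate 0 of the 10 Ms4a genes and 0 of all genes were called by edgeR, with 845, 945 and 1509 of all genes at an unadjusted p under 0.05. Leaving out each tumor gave 0 to 6 Ms4a genes and 0 to 1897 genes in all, and such fits have fewer samples. Of 186 values of single genes under other settings, 18 changed sign. With Ptprc these were Ms4a1 (-0.632), Ms4a4a (-0.001), Ms4a4b (-0.131), Ms4a4c (-0.021) and Ms4a6d (-0.115). With macrophage markers they were Ms4a1 (-0.760), Ms4a4a (-0.192), Ms4a4b (-0.369), Ms4a4c (-0.157), Ms4a6b (-0.138), Ms4a6c (-0.037), Ms4a6d (-0.226) and Ms4a8a (-0.082). With T cell markers they were Ms4a1 (-0.596), Ms4a4a (-0.054) and Ms4a6d (-0.010), and without single tumors Ms4a4a ranged from -0.024 (without non-responder 3) to 0.229, and was at 0.0 without responder 5. None of these passed. Taking deviations from the group means kept 13 of the 30 nearest genes. No paired analysis was possible because each mouse gave a single tumor and had a single outcome, so the groups hold different mice. With 6 and 4 tumors, and 3.10 to 16.05 counts for Ms4a1, small differences were not detectable.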
